A study of Mus musculus with 3 samples.

Results

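The deposited list of nuclear factor I (NFI) sites in mouse embryonic fibroblasts was searched for sites in gene deserts, defined here as sequence more than 100 kb away from every protein-coding gene body on chromosomes 1 to 19. Of the 38625 listed sites on these chromosomes, 7951 had their centre in a desert, and 39807 sites were listed on all chromosomes. A further 10938 sites lay outside gene bodies but within 100 kb of one, and 19736 lay inside gene bodies. The experiment was chromatin immunoprecipitation followed by sequencing (ChIP-Seq) with the H300 antibody, which recognises the NFI proteins as a group. There were 3 libraries, namely NFI ChIP from wild-type fibroblasts, NFI ChIP from fibroblasts in which the NFI-C gene had been knocked out by insertional mutagenesis, and input, which is wild-type DNA that was not precipitated. All cells came from C57BL/6 embryos of 14.5 days and were used at passages 6 to 7, and each condition was a single library without a replicate. The antibody also binds NFI-A, NFI-B and NFI-X, so that the knock-out library is a test of NFI-C loss and not of the loss of all NFI proteins. A tag is a uniquely mapped read counted once per position and strand. Intervals are 95% intervals and cover counting error only, since no replicate measured the spread between cultures.

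The mouse genes Nfia, Nfib, Nfic and Nfix encode NFI proteins, which regulate transcription in many tissues and also take part in the replication of some viral DNA. The consensus searched for here is TTGGCA, then 3 bases of any kind, then TGCCAA, so that each arm can be contacted by a subunit of a protein pair. Gene deserts are long stretches without protein-coding genes. They often flank genes that control development, some hold enhancers that act over long distances, and many lie against the nuclear lamina in a compact state. H3K27me3 is the histone mark laid down by Polycomb complexes, and H3K4me3 marks promoters and other active elements.

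The following sequences are mm9 plus-strand sequence around desert sites that had many wild-type tags or a close match to the palindrome, with the 15 bases of the match in capitals. They are shown because sites with such a match held more knock-out tags than sites without one. Each is named by a protein-coding gene that flanks its desert and by its coordinates.
Hs6st1 chr1:35932277-35932317: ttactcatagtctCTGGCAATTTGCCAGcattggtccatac
Celf2 chr2:7168075-7168115: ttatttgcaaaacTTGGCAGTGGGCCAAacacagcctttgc
Dsel chr1:115194593-115194633: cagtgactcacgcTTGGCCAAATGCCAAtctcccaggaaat
Tle1 chr4:72051403-72051443: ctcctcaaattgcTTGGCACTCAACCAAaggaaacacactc
Nlgn1 chr3:24589260-24589300: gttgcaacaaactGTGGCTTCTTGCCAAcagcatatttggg
9430031J16Rik chr1:81741328-81741368: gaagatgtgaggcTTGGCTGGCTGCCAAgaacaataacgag
Emp1 chr6:135475977-135476017: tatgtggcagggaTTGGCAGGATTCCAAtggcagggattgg
Tank chr2:61122509-61122549: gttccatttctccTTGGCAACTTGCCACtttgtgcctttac
Trps1 chr15:50193666-50193706: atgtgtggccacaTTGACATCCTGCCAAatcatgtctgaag
Ptbp2 chr3:119653823-119653863: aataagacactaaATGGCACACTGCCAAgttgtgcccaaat

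Counting positions from 1 at the 5′ end of the palindrome, the Hs6st1 match carried the changes T1C and A15G, and the Tle1 match carried T10A and G11A. The Nlgn1 match carried T1G and A6T. The remaining matches differed at 1 of the 12 fixed letters, by T10G near Celf2, A6C near Dsel, A6T near 9430031J16Rik, G11T near Emp1, A15C near Tank, G4A near Trps1 and T1A near Ptbp2. Each of these is read from the reference genome, and the tags do not resolve the base at which a protein was bound.
Not every desert site with many tags held such a match, as the window beside Cd83 shows in which no match to the palindrome was found.
Cd83 chr13:44030729-44030848: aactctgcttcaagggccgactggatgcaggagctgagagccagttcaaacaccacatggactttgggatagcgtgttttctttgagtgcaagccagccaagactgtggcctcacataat

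Desert sites were common but thinner on the ground than sites elsewhere. Deserts made up 649 Mb, or 27.1% of the known autosomal bases, and held 20.6% of the sites (exact binomial interval 20.2 to 21.0%). Their density was 12.2 sites per Mb (exact Poisson interval 11.98 to 12.52), against 13.7 near genes and 20.9 within gene bodies. Deserts were also poorer in input tags, with 0.805-fold the autosomal input tag density. When sites were counted per 1000 input tags, deserts held 9.28 sites, near-gene sequence held 8.76 and gene bodies held 10.9. Deserts were thus above near-gene sequence by this scaling, whereas they stayed below it per 1000 wild-type tags, at 10.1 against 10.8 sites, and per 1000 knock-out tags, at 11.0 against 11.4. Gene bodies were highest by each of these counts, at 14.2 and 15.3 in the latter 2. Desert sequence had a GC content of 39.2%, compared to 43.2% in gene bodies, and the 300 bp windows at desert sites averaged 37.9%.

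Tags of the knock-out library were above their autosomal average at desert sites, by far less than those of the wild-type library, and their ratio to input depended on the sites and scaling used. In 300 bp around the site centres, the 7951 desert sites gathered 25550 wild-type ChIP tags, 5121 knock-out ChIP tags and 6237 input tags. These sums were 8.05, 1.73 and 1.60 times the autosomal average of the respective library. The wild-type value is raised by the fact that the sites were called on the wild-type tags, and it is given as a description. The knock-out and input tags played no part in the site list. By this count the desert sites held a median of 3 wild-type tags, from 1 to 69, and 790 of them (9.94%) held 5 or more. The sites had been called at a threshold of 5 tags shifted by 75 bp, whereas unshifted tags around the listed centre were counted here. The wild-type tags were not centred there, as described below. These counts thus differ from those of the call, and the part of window placement in them was not tested. Scaled by library totals of 3350071 wild-type tags, 3132004 knock-out tags and 4100449 from input, knock-out ChIP exceeded input 1.08-fold (1.04 to 1.12). This ratio fell below 1 at sites more than 200 kb from genes (0.890), with every uniquely mapped tag (0.655), at sites with at least 5 wild-type tags (0.575) and when scaled by the tags in desert sequence (0.970). All 4 values include 4 sites beside the pseudogene AY036118 that held the most input tags. Without them, the ratio was 1.38, 0.936, 1.67 and 1.31 in the same order, and stayed below 1 with every uniquely mapped tag. By that count the site at chr12:3109935-3109950 alone held 4800 of the 21587 knock-out tags left and 6128 of the 11552 input tags left. The ratio of 0.936 thus rested largely on a single site.

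Few loci held much of the input. A total of 32 desert sites held 5 or more input tags, and these alone carried 2069 of the 6237 input tags. At the 7919 other sites there were 25211 wild-type tags, 4787 knock-out tags and 4168 from input, and knock-out ChIP exceeded input 1.50-fold (1.44 to 1.57). In the sequence from 500 to 5000 bp on both sides of these 7919 sites the same ratio was 1.14 (1.13 to 1.15). The knock-out tags at the centre were 1.52 times those of the flanks (1.48 to 1.56), the input tags 1.15 times (1.11 to 1.18) and the wild-type tags 7.40 times (7.30 to 7.50). The limit on input tags acts on the same 300 bp window and so lowers the input at the centre. Over all 7951 sites the centre over flank was 1.58 for the knock-out and 1.44 for the input tags, and the order turned at sites more than 200 kb from genes (1.47 and 1.51) and with every uniquely mapped tag (1.99 and 2.65). All of these include the 4 sites beside AY036118, without which the other 7947 sites gave 1.56 and 1.22. With every uniquely mapped tag, desert sites held 16716 input tags with those 4 sites and 11552 without them. The order without them was not computed for the 2 settings in which it turned. No knock-out tag was found at 63.4% of the 7919 sites.

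**Figure D1:**
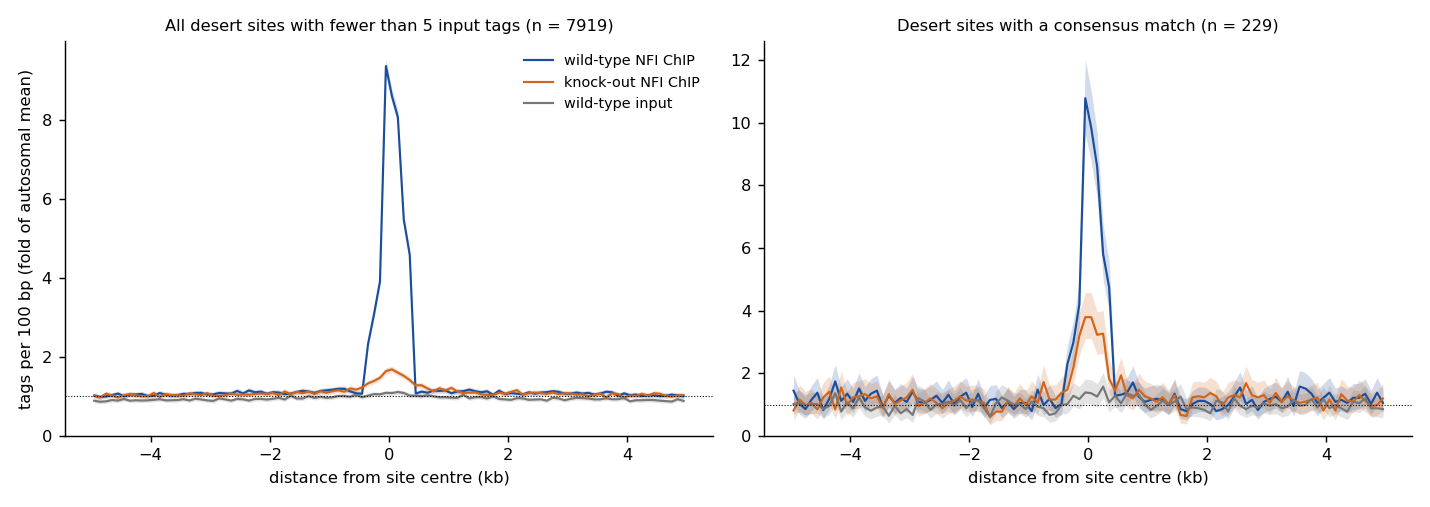
Average tag profiles around desert sites with fewer than 5 input tags, for all 7919 sites (left) and for the 229 with a consensus match (right). The x axis is the distance from the site centre in kb, the y axis the tags per 100 bp as fold of the autosomal mean of each library, and the shading the exact Poisson 95% interval; the knock-out line rises to 1.68 near the centre on the left and to 3.79 on the right, while the input stays at or below 1.11 and 1.57.

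The strand of the tags told the same 3 libraries apart. A bound fragment leaves forward tags before the site and reverse tags after it, and the share of tags within 300 bp that faced the site in this way was 67.1% in the wild-type ChIP (66.6 to 67.6%), 53.7% in the knock-out ChIP (52.7 to 54.7%) and 50.2% in the input (49.1 to 51.3%) at these 7919 sites. The knock-out share was above an even split by more than counting error, and the input share was not. The wild-type share is again raised by the calling of the sites on these tags. The profile of the wild-type tags was not centred on the listed intervals, since it was 4.58-fold the autosomal mean at 350 bp above the centre and 2.32-fold at 350 bp below it. It ended abruptly, at 1.07-fold 100 bp further up, where the knock-out profile stood at 1.28-fold, after 1.41-fold at 350 bp.

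How desert sites compared with other sites in the knock-out library depended on the measure. With fewer than 5 input tags, knock-out ChIP over input was 1.36 (1.33 to 1.40) at the 19274 gene-body sites and 1.51 (1.46 to 1.56) at the 10637 near-gene sites. Knock-out tags themselves were 1.62-fold the autosomal average at desert sites, 1.86-fold at gene-body sites and 2.17-fold at near-gene sites. For knock-out ChIP over input, the desert value was 1.10 times the gene-body value (1.05 to 1.16, normal approximation of the log ratio) and 0.997 times the near-gene value (0.947 to 1.05). Input tags differed between these classes too, at 1.07-fold the autosomal average at desert sites and 1.36-fold at gene-body sites, and the part of this difference in the ratio was not tested. When each site was measured against its own flanks, the knock-out excess at desert sites was 1.02 times that at gene-body sites (0.983 to 1.05) and 0.846 times that at near-gene sites (0.816 to 0.877). Knock-out over wild-type ChIP in deserts was 0.873 times the gene-body value (0.842 to 0.906) and 0.764 times the near-gene value (0.735 to 0.794). Its wild-type tags are those on which the sites were called, and it is given as a description. Without the restriction on input tags, the desert value of knock-out over input was 0.970 times the gene-body value (0.930 to 1.01) and 0.920 times the near-gene value (0.878 to 0.964). These values turned above 1 without the 4 desert sites beside AY036118, at 1.31 times the gene-body value (1.25 to 1.37) and 1.24 times the near-gene value (1.18 to 1.30). Directly around the edge of the rule, the scaled ratio of knock-out ChIP to input was taken without a limit on input tags. It was 1.21 (1.05 to 1.40) at 90 to 100 kb from a gene body (411 sites). At 100 to 110 kb (339 sites) it was 1.37 (1.14 to 1.66), so that the intervals overlapped. In the former group 1 site held 117 of the 401 input tags.

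The desert sites with the most input tags fell into a few places. The 4 with the most input tags all lay on chromosome 17 within and beside AY036118, annotated as a pseudogene. In RefSeq on the later build GRCm38.p6, AY036118 is the direct neighbour of Rn18s-rs5, a ribosomal RNA related sequence. The site at chr17:39981318-39981333 held 546 input tags beside 26 wild-type and 43 knock-out tags. In the same order of libraries, input first, the site at chr17:39982714-39982729 held 499, 23 and 39, the site at chr17:39985365-39985380 held 449, 20 and 33, and the site at chr17:39980487-39980502 held 245, 39 and 36. The 4 were picked for their input tags. Removing only these 4 sites moved knock-out ChIP over input at desert sites from 1.08 to 1.45 (1.39 to 1.51). The fifth in order, at chr12:3109935-3109950 and 110 kb from the first assembled base of its chromosome, held 69 wild-type tags, 74 knock-out tags and 85 from input.

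Among desert sites with fewer than 5 input tags, those with more wild-type tags also held more knock-out tags relative to input. Without that limit, the ratio at desert sites with at least 5 wild-type tags rested on the 4 sites beside AY036118. It was 0.575 (0.534 to 0.617) with them, against 1.08 for all desert sites, and 1.67 (1.52 to 1.84) without them, against 1.45. With the limit, knock-out ChIP over input stood between 1.40 and 1.46 for the sites with 1, 2, 3 or 4 wild-type tags, and these groups did not differ beyond their intervals. It was 1.68 (1.45 to 1.94) for the 581 sites with 5 wild-type tags, 2.05 (1.56 to 2.70) for the 132 sites with 6, and 6.65 (4.66 to 9.74) for the 58 sites with 7 or more, which held 188 knock-out and 37 input tags. A site was called higher in the knock-out ChIP than in input when it held at least 3 knock-out tags and at least 2-fold the scaled input tags. This was met by 5.50% of all 38625 sites and by 366 desert sites, or 4.60% (4.15 to 5.09%), against 6.59% near genes and 5.26% in gene bodies. The desert share was thus slightly below that of all sites. Mean input tags per site were 0.784 in deserts, or 0.566 without the 4 sites beside AY036118, and 0.930 in gene bodies. Mean knock-out tags per site were 0.644 in deserts and 0.787 in gene bodies. The part of tag density in this call was not tested.

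**Figure D2:**
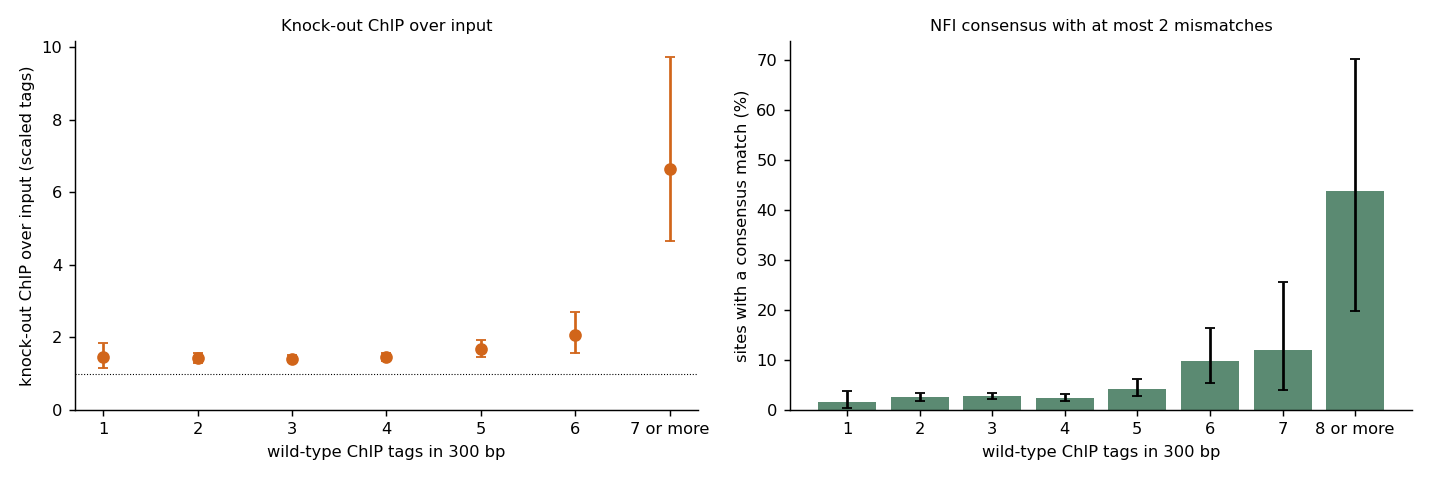
Desert sites with fewer than 5 input tags, grouped by their wild-type ChIP tags in 300 bp (x axis). The left panel shows knock-out ChIP over input after scaling by library totals and the right panel the percentage of sites with a consensus match; bars are exact 95% intervals for counting error, and both rise most in the groups of highest wild-type count, to 6.65 and to 43.8%.

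The NFI palindrome was rare at desert sites, yet more frequent than in the neighbouring sequence. A match to the palindrome (TTGGCA and TGCCAA with 3 bases of any kind between them) with at most 2 mismatches at the 12 fixed letters, which reads alike on both strands, lay within 150 bp of the centre of 229 desert sites, or 2.88% (2.52 to 3.27%). Of the 15902 windows of the same size 2 kb to either side, 1.24% held one (1.07 to 1.42%), so that the sites exceeded them 2.32-fold. Gene-body sites gave 3.11% against 1.34% and near-gene sites 3.43% against 1.39%, and the fold over the flanks was of like size. With at most 1 mismatch, 40 desert sites held a match (0.503%) against 0.0880% of the flanking windows. The shorter word TTGGCA or its complement TGCCAA, which the palindrome contains, occurred at 18.5% of desert sites and in 14.5% of the flanking windows. Among the 7919 sites with fewer than 5 input tags, the share with a palindrome was higher at sites with more wild-type tags, from 1.49% of the sites with 1 tag to 4.13% with 5 tags and 43.8% with 8 or more (7 of 16 sites, 19.8 to 70.1%).

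Matches lay on both sides of the listed centres. A share of 40.2% of the matches lay within 50 bp of the centre (33.8 to 46.8%), where an even spread would give 33.6%. Among the 614 matches at gene-body sites this share was 33.9% (30.1 to 37.8%). Of all 229 matches at desert sites, 131 (57.2%) lay at a higher coordinate than the listed centre, at a median of 15 bp above it. Of the 40 matches with 0 or 1 mismatch, 28 lay at a higher coordinate than the listed centre, with a median of 50.5 bp above it, the same side on which the wild-type tags extended further.

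Sites with a palindrome held more knock-out tags than those without. All 229 desert sites with a match had fewer than 5 input tags, and they were set beside the 7690 sites without a match under the same limit. At the 229 sites, 309 knock-out and 140 input tags gave a ratio of 2.89 (2.36 to 3.55), against 1.46 (1.40 to 1.52) at the 7690 sites. The former was 1.99 times the latter (1.62 to 2.44), a difference larger than counting error. Knock-out over wild-type ChIP was 2.03 times as high at sites with a match (1.77 to 2.32). The sites were called on the wild-type tags, which averaged 3.62 per site with a match and 3.17 without. This ratio thus largely repeats the knock-out counts and is no separate evidence. Gene-body sites with a match reached 2.70, and the desert value was 1.07 times that (0.850 to 1.35), so that a difference between deserts and gene bodies was not detectable at this depth. In the 40 sites with 0 or 1 mismatch there were 148 wild-type tags, 49 knock-out tags and 17 from input, a ratio of 3.77 (2.14 to 6.99). The call against input was met by 31 of 229 sites with a match (13.5%) and by 4.34% of the 7722 desert sites without one, at any number of input tags. The strand asymmetry of knock-out tags was also larger at the sites with a match, with 62.3% facing the site (58.1 to 66.3%). It reached 59.1% in the input of the same sites (53.3 to 64.7%).

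Among desert sites low in input, the one richest in wild-type tags was chr1:35932289-35932304, 193 kb from Hs6st1, which encodes a heparan sulphate sulphotransferase. It held 14 wild-type tags, 6 knock-out tags and 0 from input, and its palindrome lay 1 bp from the listed centre. The site at chr2:7167958-7167973 lay between Celf2, encoding an RNA-binding protein, and Gata3, encoding a zinc finger transcription factor, and held 9 wild-type tags, 7 knock-out tags and 0 from input. It fell in H3K27me3-rich, H3K4me3-rich and lamina domains together. The site at chr1:115194575-115194590 was 1433096 bp from Dsel, its nearest protein-coding gene, fell in none of the domains, and held 9 wild-type tags, 4 knock-out tags and 0 from input. These 3 sites were chosen for many wild-type and few input tags, so that the order of their libraries is no finding.

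At other named sites the knock-out tags were close to the wild-type tags in number. Sites tied in wild-type tags were ranked by their knock-out tags. Those named here with 8 wild-type tags were thus picked for high knock-out counts, and these counts are no finding. The site at chr4:72051388-72051403, 189 kb from Tle1, which encodes a Groucho-type co-repressor, held 8 wild-type tags, 10 knock-out tags and 0 from input. The site at chr13:44030782-44030797 between Cd83, encoding a surface protein of the immune system, and Jarid2, encoding a partner of a Polycomb repressive complex, held 8, 9 and 2 tags and no palindrome. The site at chr13:31299700-31299715 between Gm5447 and A530084C06Rik held 10, 7 and 1 tags and had no palindrome either. The site at chr3:24589148-24589163 between Gm7536 and Nlgn1, encoding the synaptic adhesion protein neuroligin, held 8, 7 and 1 tags, and the site at chr3:56878639-56878654 between F830104G03Rik and Tm4sf1 held 8, 5 and 1. Counts this small do not tell the wild-type and the knock-out library apart at a single site.

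The knock-out library was low at others. The site at chr8:49877956-49877971, 118 kb from the teneurin gene Odz3, held 9 wild-type tags, 1 knock-out tags and 1 from input, and the site at chr6:93235997-93236012 between Adamts9, a matrix protease gene, and Magi1 held 9, 2 and 3. Neither held a palindrome. The sites with a single mismatch beside Trps1 and beside Ptbp2 each held 5 wild-type tags, 0 knock-out tags and 1 from input. A further close match beside Emp1 held 6, 1 and 0 tags, the one between 9430031J16Rik and the insulin receptor substrate gene Irs1 held 6, 2 and 0, and the one between Rbms1 and Tank held 5, 3 and 0. A close match to the palindrome thus occurred at sites with and at sites without knock-out tags. The site farthest from any gene, at chr18:28161943-28161958, was 2249466 bp from Celf4 and held 3 wild-type tags, 0 knock-out tags and 1 from input.

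Sites thinned out slowly towards the interior of deserts, and their knock-out signal fell with them. The median distance of desert sites from a gene body was 282 kb, 2006 sites (25.2%) lay beyond 500 kb and 536 beyond 1000 kb. Density fell from 13.1 sites per Mb (12.6 to 13.6) at 100 to 200 kb to 11.2 (10.6 to 11.8) at 500 to 1000 kb and 10.5 (9.60 to 11.4) beyond that. Per 1000 input tags it went from 9.57 to 8.57, since the input also thinned out. With fewer than 5 input tags, knock-out ChIP over input was 1.69 (1.58 to 1.81) at 100 to 200 kb, between 1.42 and 1.46 in the next 3 bins, and 1.01 (0.841 to 1.21) beyond 1000 kb. The last was 0.596 times the first (0.493 to 0.720). Over the whole sequence of the same bins the ratio hardly moved, from 1.11 to 1.13.

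At the most remote sites the interval of the knock-out to input ratio thus included 1. Beyond 1000 kb, knock-out tags at the centre were 1.14 times their flanks and input tags 1.29 times. The share of knock-out tags that faced the site was 46.6% there (41.8 to 51.5%). A palindrome was present at 15 of these 536 sites (2.80%), and at 3.28% of the sites at 100 to 200 kb. GC content fell over the same range, from 40.7% to 36.9% of the sequence, as did the share of sites in H3K4me3-rich regions, from 30.0% to 2.99%. By GC content of the 300 bp window alone, knock-out ChIP over input rose from 1.32 below 35% to 2.04 at 50% or more. Distance, GC content and histone marks moved together, and their separate parts were not tested.

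**Figure D3:**
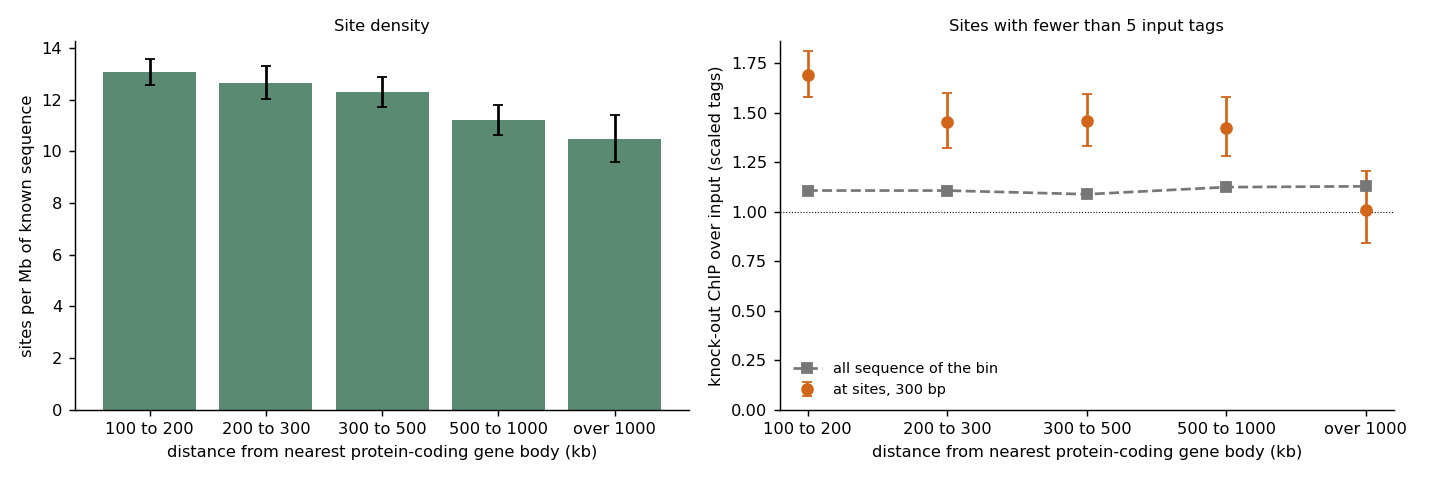
Density of desert sites (left, sites per Mb of known sequence with exact Poisson 95% intervals) and knock-out ChIP over input in 300 bp at sites with fewer than 5 input tags (right, circles with exact 95% intervals) against the distance from the nearest protein-coding gene body in kb. Squares give the same ratio over all sequence of each bin; the site ratio falls from 1.69 to 1.01 while the squares stay between 1.09 and 1.13.

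Within deserts, sites were concentrated in regions rich in H3K4me3 and H3K27me3 and were slightly depleted in lamina domains. The histone regions were derived by the authors from ChIP-Seq of mouse embryonic fibroblasts of another series. The lamina domains came from human Tig3 fibroblasts and had been transferred to the mouse genome by sequence lift-over, so that they describe a different cell and species. H3K27me3-rich regions covered 25.4% of desert sequence and held 42.8% of desert sites (41.7 to 43.9%), with 20.6 sites per Mb inside and 9.40 outside. H3K4me3-rich regions covered 6.65% and held 19.1% (18.3 to 20.0%), with 35.3 against 10.6 sites per Mb. Lamina domains covered 58.9% and held 55.1% (54.0 to 56.2%), with 11.4 against 13.4 sites per Mb. H3K36me3, the mark of transcribed gene bodies, covered only 0.374% of desert sequence and held 110 sites.

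Part of this was shared with the input. H3K27me3-rich regions held 33.0% of the input tags of deserts and H3K4me3-rich regions 10.3%. Relative to the input tags, the sites were enriched 1.30-fold in H3K27me3-rich regions, 1.86-fold in H3K4me3-rich regions and 1.02-fold in H3K36me3-rich regions, and lamina domains held 0.948-fold. The H3K36me3 value depended on the library, since relative to wild-type and knock-out tags the sites were enriched 2.10-fold and 1.96-fold there. H3K36me3-rich regions held 1.35% of the input tags of deserts and 0.660% and 0.707% of the wild-type and knock-out tags, and the 4 sites beside AY036118 lay in them. Inside gene bodies, 49.2% of the sites fell in H3K27me3-rich, 52.3% in H3K4me3-rich and 24.4% in lamina domains.

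The marks overlapped, and the 4 combinations differed. Desert sequence with both H3K27me3 and H3K4me3 held 34.6 sites per Mb, that with H3K4me3 alone 38.7, that with H3K27me3 alone 16.7 and that with neither mark 8.96 (8.69 to 9.23). Lamina domains with H3K27me3 held 18.4 sites per Mb and lamina domains without it 9.41, against 23.0 and 9.39 outside lamina domains. Where H3K27me3 was missing, site density inside and outside lamina domains was therefore nearly the same.

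The knock-out signal was higher at sites in H3K4me3-rich regions. At desert sites with fewer than 5 input tags, knock-out ChIP over input was 2.12 (1.96 to 2.30) inside H3K4me3-rich regions and 1.31 (1.25 to 1.38) outside, a ratio of 1.62 (1.47 to 1.77). Inside and outside H3K27me3-rich regions it was 1.61 and 1.41, a ratio of 1.14 (1.05 to 1.24). This small difference was not detectable among sites outside H3K4me3-rich regions, where the values were 1.36 with H3K27me3 and 1.29 without it, a ratio of 1.05 (0.950 to 1.16). Inside H3K4me3-rich regions the order was the opposite, at 1.97 (1.80 to 2.15) for the 1225 sites with H3K27me3 and 2.91 (2.41 to 3.54) for the 276 sites without it, a ratio of 0.675 (0.549 to 0.831). Lamina sites had 1.35 and other desert sites 1.69, a ratio of 0.800 (0.736 to 0.869). The H3K4me3 difference was seen both within 500 kb of a gene, at 1.59-fold (1.44 to 1.76), and beyond 500 kb, at 1.62-fold (1.19 to 2.19), where only 117 sites lay in such regions. Mean GC content of the windows was 41.8% inside and 36.9% outside H3K4me3-rich regions, and its part was not tested.

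**Figure D4:**
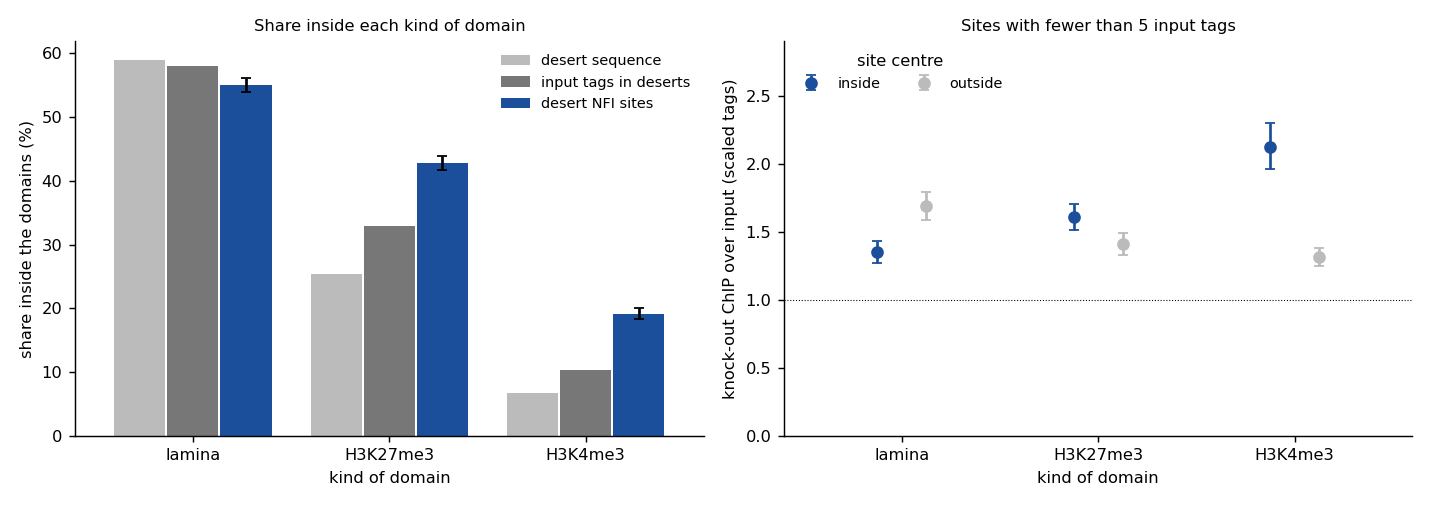
Left, percentage of desert sequence, of input tags in deserts and of desert NFI sites inside lamina domains and regions rich in H3K27me3 or H3K4me3, with the exact binomial 95% interval on the sites. Right, knock-out ChIP over input in 300 bp for desert sites with fewer than 5 input tags inside and outside each kind of domain with exact 95% intervals; the widest gap is that of H3K4me3, 2.12 against 1.31.

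Among the 1451 deserts, 1056 held at least 1 site and 395 held none. The number of sites followed the length of known sequence (Pearson's r = 0.853 across deserts, as a description). The 271 deserts with 10 or more sites held 5088 sites, or 64.0%, on 55.8% of desert sequence. Among the 414 deserts of at least 500 kb the density ran from 0 to 47.5 sites per Mb, with a median of 11.1. Across these 414 the density rose with the share of the desert in H3K4me3-rich regions (Spearman's rho = 0.616) and in H3K27me3-rich regions (0.603), and was nearly unrelated to its GC content (0.129) and to its lamina share (-0.170). Deserts of one chromosome share libraries and mapping, and the coefficients carry no test.

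The desert between Zeb2 and Acvr2a on chromosome 2 held the most sites. Zeb2 encodes a zinc finger repressor of the epithelial state and Acvr2a an activin receptor. Its 3497 kb held 78 sites, or 22.3 per Mb (17.6 to 27.8), where the mean density of deserts would give 42.8 sites (the interval covers counting error and not the choice of this desert). These sites held 250 wild-type tags, 54 knock-out tags and 49 from input, and 30 of them lay in H3K27me3-rich regions. Such regions covered 22.4% of this desert. The desert between Gm1840 and Efnb2, which encodes an ephrin ligand, held 59 sites where 34.0 would be had at the mean density. The one between Celf4 and Pik3c3 on chromosome 18 held 58 where 52.9 would be had, with 15 knock-out and 32 input tags and 3 sites in H3K27me3-rich regions. Those regions covered 2.92% of that desert. These deserts were chosen for their number of sites, so that their densities are a description, with no test against the mean.

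The other deserts among the 10 with the most sites were of both kinds. Dense ones were Nmbr to Cited2, a transcriptional co-regulator gene, with 51 sites where 33.7 would be had, Celf2 to Gata3 with 47 against 31.5, and Ttll7 to Lphn2 with 46 against 20.0. The last had 28.2 sites per Mb (20.6 to 37.6) although lamina domains covered it completely, and 69.0% of it was rich in H3K27me3. The desert from Gm9934 to Gm9966 held 45 sites against 32.8 and the one from Epha7, an ephrin receptor gene, to Map3k7 held 44 against 35.6. Those from 4930555F03Rik to Aga (46 against 46.4) and from Olfm4 to Pcdh17 (45 against 51.7) were long and of average or lower density. They held 14 knock-out and 24 input tags, and 21 knock-out and 30 input tags, respectively.

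Among deserts of at least 500 kb, the 5 of highest density were rich in H3K4me3. The desert between Rasgrp1, encoding a Ras activator, and Thbs1, encoding the matrix glycoprotein thrombospondin 1, held 27 sites on 569 kb, or 47.5 per Mb (31.3 to 69.1), and all 27 lay in regions rich in both H3K27me3 and H3K4me3. Btg1 to Dcn, the decorin gene, held 25 sites at 38.1 per Mb, Plk2 to Actbl2 held 23 at 35.2, A1bg to Myc held 29 at 33.6, and 9430031J16Rik to Irs1 held 23 at 33.3. The 5 were picked for their density, so that these densities are a description and the interval does not cover the choice. H3K4me3-rich regions covered 94.7% of the Rasgrp1 to Thbs1 desert, and H3K27me3-rich regions covered 92.5% of it. In the other 4 the H3K4me3 share was between 34.0% and 47.5%, compared to 6.65% of all desert sequence. Knock-out and input tags at the sites of these deserts were 19 and 23, 24 and 15, 23 and 8, 24 and 15, and 14 and 11, in the same order. These are counts before scaling, from libraries of 3132004 knock-out and 4100449 input tags, so that equal counts stand for more knock-out than input. At the 7919 desert sites with fewer than 5 input tags the sums were 4787 and 4168.

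The longest deserts without a site differed in how well tags could be placed in them. Gm17680 to Gm17391 on chromosome 12 had 1243 kb of known sequence and 197 input tags, and Gm17391 to Gm10330 had 786 kb and 18 input tags, so that few unique tags were seen there in any case. Tbc1d22a to Fam19a5 on chromosome 15 had 846 kb and 1103 input tags, where the mean density would give 10.4 sites. By counting error alone a count of 0 allows up to 4.36 per Mb. These 3 deserts were picked for holding no site, which this limit does not cover, so that their counts are no finding.

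**Figure D5:**
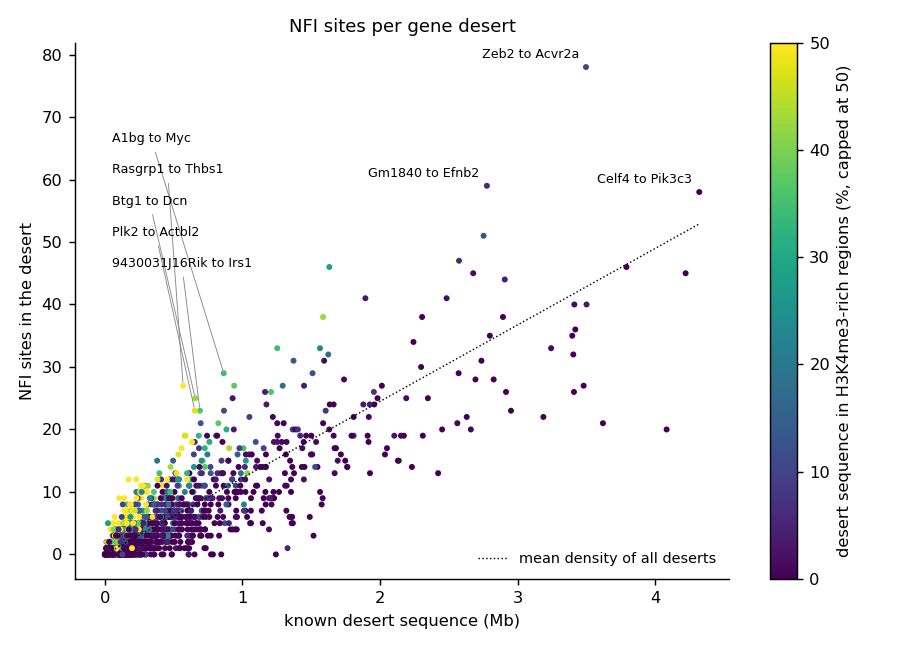
Number of NFI sites in each gene desert (y axis) against its length of known sequence in Mb (x axis), coloured by the share of the desert in H3K4me3-rich regions in percent. The dotted line is the mean density of 12.2 sites per Mb; the 3 deserts with the most sites and the 5 of highest density are named, and the latter lie well above the line at under 1 Mb.

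The genes that flank deserts were grouped by 3 lists, which were chosen with earlier results of these data known. The intervals below cover counting error and not this choice. Of 70 annotated fibroblast matrix and secreted signal genes, 37 flanked a desert, and those deserts held 278 sites on 13.6 Mb, or 20.4 per Mb (18.0 to 22.9). Of 85 developmental transcription factor genes, 65 did, with 15.2 sites per Mb (14.1 to 16.4), and of 81 adhesion and axon guidance genes, 70 did, with 10.4 per Mb (9.82 to 11.0). Over all 21281 protein-coding genes, 2442 flanked a desert (11.5%), at 12.2 sites per Mb. Among these 3 lists the fibroblast genes chosen had the densest deserts and the adhesion genes the thinnest, which is a description without a test. The order was the same per 1000 input tags, at 13.6, 10.5 and 8.34 sites against 9.28 for all deserts. The share of these deserts in H3K4me3-rich regions followed the same order, at 26.6%, 11.3% and 1.35%, and its part was not tested.

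Named deserts differed within each list. Among fibroblast genes, the desert beside the aggrecanase gene Adamts5 held 33 sites, only 2 of them in H3K27me3-rich regions, that beside the collagen gene Col12a1 held 19, that beside the tenascin gene Tnc held 17 and that beside Inhba, encoding an activin subunit, held 12. Those beside Fgf9 and Tgfb2, encoding secreted growth factors, held 10 each, all in H3K27me3-rich regions. With Thbs1 and Dcn, 8 of the 37 flanking genes of this list (21.6%) had a desert of 10 or more sites, close to the 20.9% of all flanking genes. Among transcription factor genes 27 of 65 did (41.5%), at a median desert length of 384 kb against 214 kb for all flanking genes, among them Nr2f1 with 41 sites, Runx1 with 17 and Tbx18 with 13, where all sites of the latter 2 lay in H3K27me3-rich regions. None of the 22 sites beside Pou3f2, a neural factor gene, and 2 of the 13 beside Nr4a2, a nuclear receptor gene, did. The desert beside Nfib, which encodes one of the NFI proteins, held 14 sites, of which 12 were in such regions. H3K27me3-rich regions covered 557 of 557 kb beside Runx1, 312 of 396 kb beside Tbx18 and 375 of 647 kb beside Nfib. They covered 10.4 of 1808 kb beside Pou3f2 and 49.4 of 1309 kb beside Nr4a2. Among adhesion genes 41 of 70 had a desert of 10 or more sites (58.6%), at a median desert length of 702 kb. None of the 36 sites beside Pcdh10 or the 32 between Cdh6 and Cdh9 lay in H3K27me3-rich regions, whereas 22 of 23 beside the ephrin receptor gene Epha4, 16 of 24 beside the axon guidance gene Slit2, 10 of 10 beside the neuregulin gene Nrg1 and 20 of 33 beside Flrt2 did. All 36 of those beside Pcdh10 lay in lamina domains, which covered 3296 of 3419 kb there. H3K27me3-rich regions covered 54.9 of 3419 kb beside Pcdh10 and 58.5 of 3404 kb between Cdh6 and Cdh9. They covered 1420 of 1605 kb beside Epha4, 706 of 1926 kb beside Slit2, 254 of 268 kb beside Nrg1 and 701 of 1564 kb beside Flrt2. The part of coverage in the counts of this paragraph was not tested.

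Most desert sites had no other within 2 kb and lay outside any annotated gene. Their median distance to the next desert site was 23.6 kb, and 557 (7.01%) had another within 2 kb. Among gene-body sites this share was 9.50% (9.09 to 9.91%). Gene-body sites were also denser, at 20.9 against 12.2 sites per Mb, and the part of density was not tested. There were 11 groups of 3, one of which lay beside AY036118. A total of 254 sites (3.19%) fell in genes that do not code for protein, on 2.57% of desert sequence. Long intergenic non-coding RNA genes held 122 of these, at 21.6 sites per Mb, and genes annotated as processed transcripts held 130 at 14.3. Knock-out ChIP over input was 1.56 (1.23 to 1.97) at sites in such genes and 1.50 (1.44 to 1.57) at the other desert sites, with fewer than 5 input tags. By chromosome the density ran from 9.69 per Mb (8.66 to 10.8) on chromosome 6 to 15.1 (13.9 to 16.4) on chromosome 2.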

How the data were processed

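Per the labels and the study's methods, chromatin of about 20000000 fibroblasts was fixed, sheared and precipitated, fragments of 50 to 400 bp were cut from a gel and amplified in 18 cycles. The authors deposited reads with their ELAND position and match code on mm9 (NCBIM37), a list of 16 bp site intervals and domain boundaries, all as plain positions without normalization. The label of the knock-out library names wild-type cells in its description line, and its title was followed. The sites had been called on wild-type tags shifted by 75 bp, in windows of 300 bp with a threshold of 5 tags and a repeat filter.

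Unique reads with up to 2 mismatches were reduced to 1 tag per position and strand, leaving 3350071 wild-type tags, 3132004 knock-out tags and 4100449 from input. The reads had been amplified, with 2.92, 3.45 and 1.32 copies per tag, so that intervals cover counting error only. Gene bodies were those of GENCODE on the same build. With 1 library per condition no test across samples was possible. Ratios of 2 sums have exact binomial intervals and ratios of ratios a normal approximation of the log. The members, gene lists and named items were chosen with earlier results of these data known. Named sites were the 10 with the most wild-type tags and fewer than 5 input tags, with ties broken by more knock-out tags. Also named were up to 10 with at most 1 mismatch, the 3 with the most input tags and the farthest. Named deserts were the 10 with the most sites, the 5 densest of at least 500 kb and 10 sites and the 3 longest without one, and listed genes had 10 or more sites in a desert. The sites beyond the first 3 by input tags, the Nfib desert's share in H3K27me3 and the threshold neighbours were chosen after the values were seen. ChIP tags do not check the knock-out itself, and no replicate or expression value was used here. The functions were tested on simulated data. Python 3 with NumPy, SciPy, pandas, pysam and matplotlib was used.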

Additional observations from a re-analysis of the deposited data

Results flagged for a closer look

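Knock-out ChIP over input differed between desert sites and other sites by more than counting error in 2 comparisons, each with 1 library per condition. Over all sites, the desert value was 0.920 times that of near-gene sites (0.878 to 0.964). Without the 4 desert sites beside AY036118, and with all near-gene sites kept, it was 1.24 times (1.18 to 1.30). With fewer than 5 input tags on both sides it was 0.997 times (0.947 to 1.05). The direction thus depended on which sites with many input tags were kept. At sites with fewer than 5 input tags, the desert value was 1.10 times that of gene-body sites (1.05 to 1.16). Over all sites it was 0.970 times (0.930 to 1.01). Without those 4 desert sites, and with all gene-body sites kept, it was 1.31 times (1.25 to 1.37). The intervals come from counts of tags, and the spread between cultures was not measured.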

How the results depend on the processing

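No paired analysis was possible because each condition was a single library. The 12 results compared here, as reported and in the order used below, were the share of sites in deserts, their relative density, knock-out over input, wild-type over input, knock-out over wild-type, the consensus share, the knock-out to input ratio relative to gene-body sites, the lamina ratio, the H3K27me3 ratio and the centre over flank of the wild-type, knock-out and input tags. Of the alternative values, 39 moved by less than the interval of the reported value and 73 moved by more. In the other 5, knock-out over input fell below 1, at sites more than 200 kb from genes (0.890), with every uniquely mapped tag (0.655), at sites with at least 5 wild-type tags (0.575) and when scaled by desert tags (0.970), and in 1 of the same 4 settings without the 4 sites beside AY036118, at 1.38, 0.936, 1.67 and 1.31 in this order. The value of 0.936 includes the site at chr12:3109935-3109950, with 4800 knock-out and 6128 input tags by that count. The ratio to gene bodies, 0.970 with an interval that included 1, rose above 1 in 6 of the alternatives below, at 1.04 to 1.34. Leaving out the 4 sites beside AY036118, also in the 4 settings above, was a choice made after seeing the data. Knock-out over input was then 1.45 and wild-type over input 6.92. The ratio to gene bodies, with all gene-body sites kept, was 1.31, and the input centre over flank was 1.22.

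At more than 50 kb from genes the share was 27.2%, knock-out over input 1.15, knock-out over wild-type 0.225, the ratio to gene bodies 1.04, the H3K27me3 ratio 1.57 and the knock-out centre over flank 1.64. At more than 200 kb the share was 13.6%, wild-type over input 4.56, knock-out over wild-type 0.195, the ratio to gene bodies 0.803, the H3K27me3 ratio 1.76 and the knock-out and input centre over flank 1.47 and 1.51. With the bodies of all annotated genes, AY036118 included, the 4 sites beside it no longer lay in deserts. The share was then 12.9%, density 0.723, knock-out over input 1.45, wild-type over input 7.21 and knock-out over wild-type 0.201. The ratio to gene bodies was 1.34 and the centre over flank 7.50, 1.52 and 1.19.

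With every uniquely mapped tag, wild-type over input was 2.79, knock-out over wild-type 0.234, the ratio to gene bodies 1.28 and the centre over flank 8.13, 1.99 and 2.65. With tags without mismatch, knock-out over input was 1.14, wild-type over input 5.46, knock-out over wild-type 0.208, the ratio to gene bodies 1.04 and the input centre over flank 1.39. With tags shifted by 75 bp the wild-type centre over flank was 7.48. In a window of 600 bp, knock-out over input was 1.03, wild-type over input 4.07, knock-out over wild-type 0.253 and the wild-type and knock-out centre over flank 5.88 and 1.50. In a window moved by 75 bp, also chosen after seeing the data, wild-type over input was 5.55, knock-out over wild-type 0.192 and the wild-type and input centre over flank 8.33 and 1.49.

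At sites with fewer than 5 input tags, knock-out over input was 1.50, wild-type over input 7.40, knock-out over wild-type 0.203, the ratio to gene bodies 1.10 and the knock-out and input centre over flank 1.52 and 1.15. At sites with at least 5 wild-type tags, density was 0.609, wild-type over input 2.20, knock-out over wild-type 0.262, the consensus share 6.20%, the ratio to gene bodies 0.432, the lamina ratio 0.836, the H3K27me3 ratio 1.88 and the centre over flank 10.3, 2.62 and 2.36. Scaled by desert tags, wild-type over input was 4.45. Per input tag, density was 0.927 and the H3K27me3 ratio 1.30, and per wild-type tag they were 0.789 and 1.37. The consensus share was 0.503% with at most 1 mismatch and 1.92% for TTGGC and GCCAA with 5 bases between them and at most 1 mismatch. The values at more than 200 kb and at sites with at least 5 wild-type tags include the 4 sites beside AY036118. Without these 4, knock-out over input was 1.38 and 1.67 in these 2 settings, instead of 0.890 and 0.575. Their part in the other values, and the cause of the remaining moves, was not tested. At this depth 63.2% of desert sites held no knock-out tag, so that a difference between libraries at a single site was mostly not detectable.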
